A study of Mus musculus with 32 samples.

Results

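PolyA RNA and total RNA of the mouse 1-cell embryo were set side by side, gene by gene, in 4 of the 32 libraries of the series. The first group, polyA WT 1C, held 2 polyA RNA libraries of late 1-cell embryos collected 12 hours after fertilization. The second group, total RNA m+z+Dppa4 1C, held 2 total RNA libraries of embryos of the same stage. All were of the B6 strain and carried no mutation per the labels: m and z stand for the maternal and zygotic allele of Dppa4, and both are intact in m+z+ embryos. The labels describe both groups as Dppa4 controls, and the polyA libraries as single embryos. How many embryos entered a total RNA library is not stated. The polyA libraries were made with the SMARTer Ultra Low Input and Nextera XT kits and carry no strand, while the total RNA libraries were made with a stranded SMARTer kit. The kind of RNA, the kit, the strandedness and the number of embryos therefore cannot be told apart. As a comparison of stages, the polyA WT 2C and total RNA m+z+Dppa4 2C libraries (2 each, late 2-cell embryos at 28 hours) were used.

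The 1-cell embryo of the mouse lives largely on RNA that the oocyte made and stored. Many stored mRNAs carry a short poly(A) tail while they are held silent, and the tail is lengthened in the cytoplasm when the mRNA is to be translated. Deadenylation by the CCR4-NOT complex then opens the decay of maternal mRNA. Replication-dependent histone mRNAs are an exception among mRNAs, since they normally end in a stem-loop bound by Slbp and carry no poly(A) tail. Small structural RNAs made by RNA polymerase III also lack one.

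The 3′ ends of histone mRNAs show the difference that a polyA library depends on, so a few are printed here, read from GENCODE M21 transcripts on mm10. For the replication-dependent genes the capitals mark a match to the histone stem-loop consensus (searched on the transcript strand in the last 150 bases). For the replacement histones they mark a polyadenylation hexamer (AATAAA or ATTAAA on the transcript strand, in the last 50 bases).
Hist2h2aa1, chr3:96246025-96246054, plus strand: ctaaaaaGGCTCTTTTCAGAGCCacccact
Hist2h2aa2, chr3:96239777-96239806, minus strand: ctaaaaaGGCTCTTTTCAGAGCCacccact
Hist1h2bk, chr13:22036293-22036322, plus strand: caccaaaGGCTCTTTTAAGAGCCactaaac
Hist1h2bj, chr13:22043631-22043660, plus strand: atccaaaGGCTCTTTTCAGAGCCacgcaca
H2afz, chr3:137866885-137866914, plus strand: ctctgcttactaATTAAAcagtgcatctgt
H2afx, chr9:44336031-44336060, plus strand: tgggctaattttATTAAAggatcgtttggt
H1foo, chr6:115950202-115950231, plus strand: tcataatttatcAATAAAgactttgtattc
H3f3a, chr1:180800836-180800865, minus strand: aatttgaaaaatAATAAAagtaccaataga
The stem-loop match was found in 23 of 65 replication-dependent histone transcripts, in none of 13 replacement histone transcripts and in 63 of 21519 protein-coding transcripts (0.293%). Many annotated histone transcripts, such as those of Hist1h2aa and Hist1h2ba, end with the coding sequence, so a missing match says only that these letters are not in the window. A hexamer was found in 14 of the 65 replication-dependent transcripts, in 10 of the 13 replacement histone transcripts and in 72.5% of protein-coding transcripts. The windows of Hist2h2aa1 and Hist2h2aa2 are identical, which makes the split of reads between these copies uncertain.

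The deposited FPKM were scaled to TPM (transcript abundance as parts of a fixed library total) in each library, and log2(TPM + 1) was set relative to the library's median gene. Values called log2 ratios below are polyA minus total RNA on this centred scale. The centring matters, because the library medians over tested genes were on average 0.58 lower in polyA than in total RNA before it (log2). The median of the ratios of single genes was -0.36 without centring and 0.22 with it. On the centred scale the median ratio is therefore positive. Of 46078 genes, 13585 had at least 1 TPM in at least 2 of the 4 libraries and were tested with limma, with Benjamini-Hochberg adjustment and a threshold of 0.05. PolyA replicates correlated at r = 0.962 and total RNA replicates at r = 0.981 across these genes, against 0.723 to 0.743 between the kinds. In polyA RNA 4838 genes (35.6%) were higher and 3627 (26.7%) were lower. Without the centring the split turned round, with 3359 higher and 5277 lower, and without the filter on low values it was 3173 and 5009. The count of lower genes was 2174 without total RNA replicate 1 and 2077 without total RNA replicate 2. With 2 libraries a group, the p-values reflect how far these particular libraries vary, and that variation may be technical. The values used are FPKM without counts, so the depth of each library is unknown. The number of embryos in a total RNA library is not stated, so there fewer embryos and less RNA in each cannot be told apart.

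**Figure D1:**
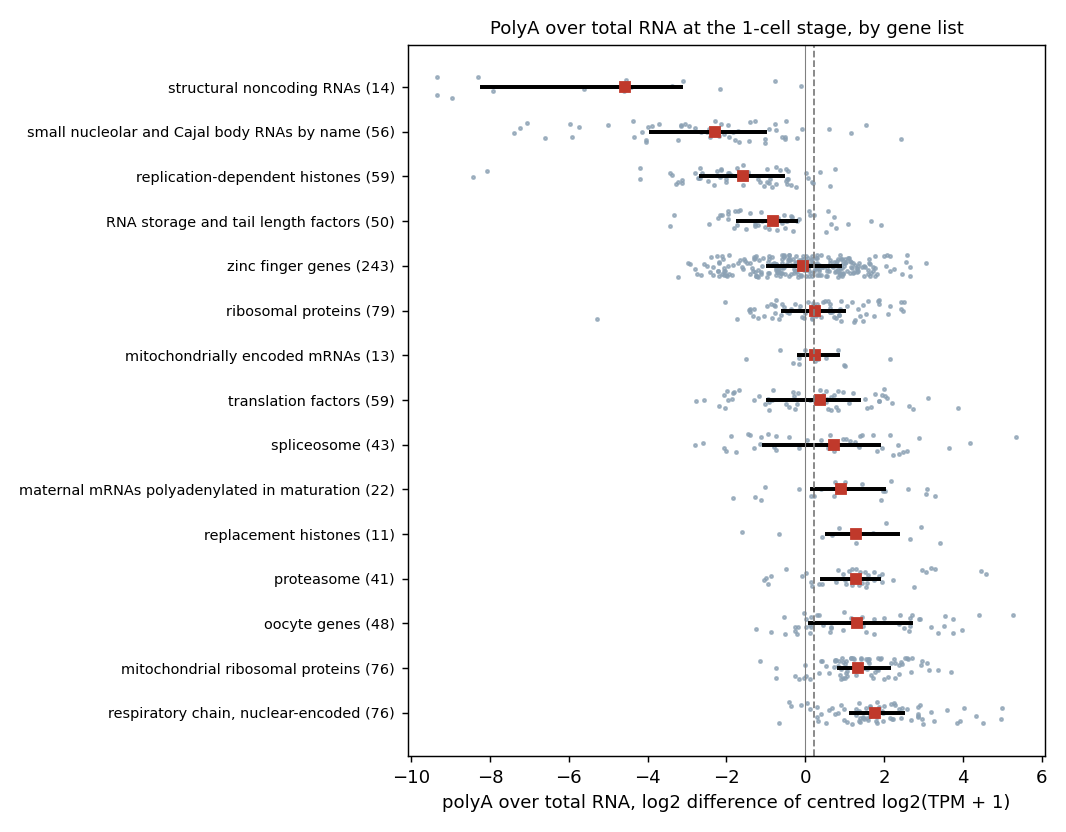
Log2 ratio of polyA over total RNA at the 1-cell stage for the members of 15 gene lists (points; tested members in parentheses), with the median (red square) and the interquartile range (black bar). The solid line is 0 and the dashed line the median of all genes tested, 0.22. Structural noncoding RNAs have a median of -4.57, replication-dependent histones -1.57 and ribosomal proteins 0.25.

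The embryos carried the transcripts of their oocyte origin in both kinds of library, including Zp3, Gdf9, Ooep, Nlrp5, H1foo and Dppa3. Blood markers summed to at most 1.75 TPM in any 1-cell library, and 6 of 8 were listed at 0 in both polyA libraries and 7 of 8 in both total RNA libraries. Cumulus and granulosa markers summed to 19.9 and 34.1 TPM in polyA RNA, and 13.6 and 12.5 TPM in total RNA. Nearly all of that was Cyp19a1, at 18.6 and 33.1 TPM in polyA RNA and 13 and 11.7 TPM in total RNA. Sperm markers summed to 11.9 and 34.6 TPM in polyA RNA and 27.4 and 26.0 TPM in total RNA. The part of other cells in the results was not tested.

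Structural noncoding RNAs had the lowest median ratio of the gene lists. Of 15 listed genes 14 were tested, 12 of them were lower in polyA RNA (against 26.7% of all genes) and 0 were higher, also at an unadjusted limma p below 0.05. The list median was -4.57, against 0.22 for all genes tested. Together the 15 genes held 6322 and 4137 TPM in polyA RNA, against 139478 and 147790 TPM in total RNA. These sums include the 2 mitochondrial rRNAs, which are described again further on. The mitochondrial rRNAs alone held 5981 and 3143 TPM in polyA RNA and 85013 and 81398 TPM in total RNA.

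Rn7sk, the 7SK RNA that holds the elongation factor P-TEFb inactive (chr9:78175303-78175633), had 20.02 and 33.3 TPM in polyA RNA and 10376 and 8909 TPM in total RNA. Its log2 ratio was -7.91 (SE 0.21, limma adjusted p = 6.17e-05). Rn7s1, a copy of the 7SL RNA of the signal recognition particle, had 18.9 and 26.9 TPM in polyA RNA and 19773 and 26704 TPM in total RNA (log2 ratio -9.35). Its near copy Rn7s2 had almost the same values, so the share of each is uncertain. Rpph1, the RNA of ribonuclease P (chr14:50807449-50807767), had 1.66 and 1.32 TPM in polyA RNA and 1416 and 2403 TPM in total RNA (log2 ratio -8.96, SE 0.32). In each of these genes the kinds of library lay far apart, with 2 close values in each.

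Rmrp, the RNA of ribonuclease MRP, was listed at 0 in both polyA libraries and at 58.7 and 15.7 TPM in total RNA. Rnu11, an RNA of the minor spliceosome, was also listed at 0 in polyA RNA and at 66.3 and 76.7 TPM in total RNA. Rnu12 of the same spliceosome had 0.61 and 0.40 TPM in polyA RNA and 54.2 and 49.2 TPM in total RNA. The vault RNA Vaultrc5 stood apart from this list. It had 281 and 893 TPM in polyA RNA and 918 and 696 TPM in total RNA, which overlap, with a log2 ratio of -0.10 (SE 0.47, limma adjusted p = 0.866).

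The same direction was seen over several annotated RNA types, set against 26.7% lower and 35.6% higher of all genes. Of 52 snRNA genes tested 42 were lower and 2 higher in polyA RNA (median -3.64), and of 133 snoRNA genes 89 were lower and 9 higher (median -2.24). All but 1 of 15 scaRNA genes, which guide modification in the Cajal body, were lower (median -2.41). The miRNA type was more mixed, with 23 lower and 12 higher of 63 (median -0.68). Of 22 mitochondrial tRNA genes 7 were lower and 7 higher (median -0.05). Scarna13 had 0 and 0.407 TPM in polyA RNA and 293 and 296 TPM in total RNA. Snord118, the U8 snoRNA of large-subunit rRNA processing, went the other way at 64.8 and 68.8 TPM in polyA RNA and 42.8 and 26.9 TPM in total RNA (log2 ratio 1.53, SE 0.24, limma adjusted p = 0.00282). FPKM of RNAs this short depend strongly on the length used, so their levels are best read only between libraries of 1 gene.

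Ribosomal RNA rows did not move together. Of 17 genes of the rRNA type 13 were lower and 2 higher in polyA RNA, against 26.7% and 35.6% of all genes. n-R5s193, a 5S rRNA gene, was listed at 0 in both polyA libraries and at 1256 and 709 TPM in total RNA. Rn18s-rs5, an 18S-related sequence, had 489 and 777 TPM in polyA RNA and 0.111 and 0 TPM in total RNA (log2 ratio 9.77, SE 0.24), the highest ratio of all genes tested. Both are repeated sequences, so the copy that the reads came from is uncertain. Yam1, a lincRNA gene on the opposite strand within the span of Rn18s-rs5, went the other way. It had 0 and 0.0607 TPM in polyA RNA and 1058 and 859 TPM in total RNA (log2 ratio -9.28, SE 0.20). The polyA libraries carry no strand, so reads of Rn18s-rs5 and Yam1 cannot be told apart there. The part of strand in their ratios was not tested.

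Long noncoding RNAs lay on the other side. Of 389 lincRNA genes tested 268 were higher and 17 lower in polyA RNA (median 1.67). Of 274 antisense genes 192 were higher and 9 lower (median 1.76), against 35.6% higher and 26.7% lower of all genes. The annotation holds 3179 lincRNA and 2226 antisense genes, and a gene could pass the filter through the 2 polyA libraries alone. In total RNA the median tested lincRNA gene had 2.78 and 2.71 TPM, and the median antisense gene 1.58 and 1.44 TPM. Without the filter 3173 of all genes were higher and 5009 lower, and the part of the filter in these types was not tested. Meg3, an imprinted noncoding RNA, had 9.04 and 10.6 TPM in polyA RNA and 1.35 and 0.239 TPM in total RNA (log2 ratio 3.24, SE 0.38). Processed pseudogenes were higher in 499 and lower in 108 of 947 genes tested (median 1.06). The polyA libraries carry no strand, so reads of an antisense gene and of its partner cannot be told apart there, and pseudogene rows can hold reads of the parent gene. Malat1, a nuclear RNA with a triple-helix end in place of a tail, had 5.09 and 1.91 TPM in polyA RNA and 10.3 and 5.50 TPM in total RNA, with a log2 ratio of -0.45 (SE 0.50, limma adjusted p = 0.466).

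Gene types took different shares of each library. Protein-coding genes held 91.4% and 92.3% of TPM in polyA RNA and 73.5% and 74.3% in total RNA. Both mitochondrial rRNAs together held 0.598% and 0.314% in polyA RNA and 8.50% and 8.14% in total RNA. The miscellaneous RNA type, with 7SK and 7SL, held 0.0430% and 0.107% in polyA RNA and 5.40% and 6.48% in total RNA. The miRNA type held 0.138% and 0.236% in polyA RNA and 6.68% and 5.27% in total RNA. Most of its total RNA share was Gm23935, the most abundant gene there at 55816 and 43216 TPM, against 329 and 818 TPM in polyA RNA. Each of these shares lay apart between the kinds of library.

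Replication-dependent histone mRNAs, which supply histones for new DNA, were lower in polyA RNA but far from absent. Of 67 genes 59 were tested, of which 38 (64.4%) were lower, 0 were higher and 21 did not pass. Over all genes tested 26.7% were lower and 35.6% higher. At an unadjusted limma p below 0.05, 41 were lower and 1 was higher. The median was -1.57, with quartiles at -2.64 and -0.57. In 48 of the 59 the polyA values lay below the total RNA values with no overlap, against 37.3% of all genes tested, and in 4 they lay above, against 45.6%. Summed over the 67 genes the level was 660 and 727 TPM in polyA RNA and 5515 and 6367 TPM in total RNA. The median tested member had only 2.71 and 1.84 TPM in polyA RNA, against 16.5 and 18.9 TPM in total RNA. In both polyA libraries 3 of the 67 were listed at 0.

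Each histone family held lower genes, set against 26.7% lower of all genes tested. Among the linker H1 genes all 4 tested were lower, with a family sum of 160 and 151 TPM in polyA RNA and 2244 and 2364 TPM in total RNA. For H3 the count was 9 of 10 and the median -2.67, for H4 it was 11 of 12 and -1.47, and for H2A it was 11 of 18 and -1.84. In H2B only 3 of 15 tested genes were lower, no larger a share than the 26.7% of all genes, with a median of -0.43. Whether H2B differs from the other families was not tested.

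Hist1h1a, a linker histone gene named for being the most abundant histone transcript in total RNA after its values were seen, had 153 and 147 TPM in polyA RNA and 2102 and 2233 TPM in total RNA. Its log2 ratio was -3.27 (SE 0.16, limma adjusted p = 0.000116). Hist2h2bb, an H2B gene (ENSMUSG00000105827, chr3:96269752-96270132), had 0.50 and 0.69 TPM in polyA RNA and 708 and 575 TPM in total RNA, a log2 ratio of -8.07 (SE 0.19). The tables hold a second row under that symbol, so the split of its reads is uncertain. Hist2h2aa2 was listed at 0 in both polyA libraries and at 369 and 715 TPM in total RNA. Its copy Hist2h2aa1, whose printed window is the same, had 44.5 and 59.1 TPM in polyA RNA and 415 and 708 TPM in total RNA.

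Some members stood out by how much of them the polyA libraries held. Hist1h2ba, the H2B variant that testis and oocyte share (chr13:23933773-23934156), had 88.6 and 79.5 TPM in polyA RNA and 157 and 191 TPM in total RNA. That is a log2 ratio of -0.46 on the centred scale (SE 0.20, limma adjusted p = 0.0967). Its neighbour Hist1h2aa, the matching H2A variant, had 76.0 and 101.1 TPM in polyA RNA and 313 and 409 TPM in total RNA, a log2 ratio of -1.44 (SE 0.21, limma adjusted p = 0.0022). Hist1h2bk had 48.7 and 77.8 TPM in polyA RNA and 74.1 and 90.9 TPM in total RNA, which overlap. Its log2 ratio was 0.17 (SE 0.24, limma adjusted p = 0.566), and the stem-loop printed above stands near the annotated end of its transcript. Members with the stem-loop match had a median of -1.50 (14 of 23 lower) and tested members without it -1.66 (23 of 34 lower). Of all genes tested 26.7% were lower.

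Replacement histones, whose genes are used outside S phase and give polyadenylated mRNA, had more higher than lower members. Of 13 genes 11 were tested, 6 were higher and 1 was lower in polyA RNA (against 35.6% and 26.7% of all genes), with a median of 1.28. With the trend over transcript length removed, 4 were higher and 2 lower and the median was 0.20. H2afz, which encodes H2A.Z, had 82.4 and 56.6 TPM in polyA RNA and 8.73 and 8.70 TPM in total RNA (log2 ratio 3.41, SE 0.28, limma adjusted p = 0.000402). H3f3b, a gene for H3.3, had 2091 and 3287 TPM in polyA RNA and 515 and 512 TPM in total RNA (log2 ratio 2.93, SE 0.19). H1foo, the oocyte linker histone, had 503 and 803 TPM in polyA RNA and 491 and 560 TPM in total RNA (log2 ratio 0.85, SE 0.21, limma adjusted p = 0.016). Its raw TPM overlap, and the ratio turned negative under quantile normalization (-0.18) and with the trend over transcript length removed (-0.49).

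H2afx was the exception among the replacement histones. It encodes H2A.X and is known to give both a stem-loop and a polyadenylated mRNA. It had 8.68 and 12.1 TPM in polyA RNA and 50.4 and 49.3 TPM in total RNA (log2 ratio -1.60, SE 0.21, limma adjusted p = 0.00155). The printed hexamer lies near its annotated end, and no stem-loop match was found in the window searched.

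Of 13 genes that process histone mRNA, 2 (15.4%) were higher and 3 (23.1%) lower in polyA RNA, against 35.6% and 26.7% of all genes. The share of lower genes was near that of all genes. Slbp, the stem-loop binding protein, is itself an abundant maternal mRNA. It had 3553 and 2926 TPM in polyA RNA and 1164 and 1200 TPM in total RNA (log2 ratio 2.02, SE 0.19, limma adjusted p = 0.000548). Lsm10, a subunit of the U7 snRNP, was higher with a log2 ratio of 2.57 (SE 0.17). Sympk, a scaffold of the cleavage complex, had 0.614 and 0.492 TPM in polyA RNA and 35.8 and 32.1 TPM in total RNA (log2 ratio -3.91, SE 0.27).

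**Figure D2:**
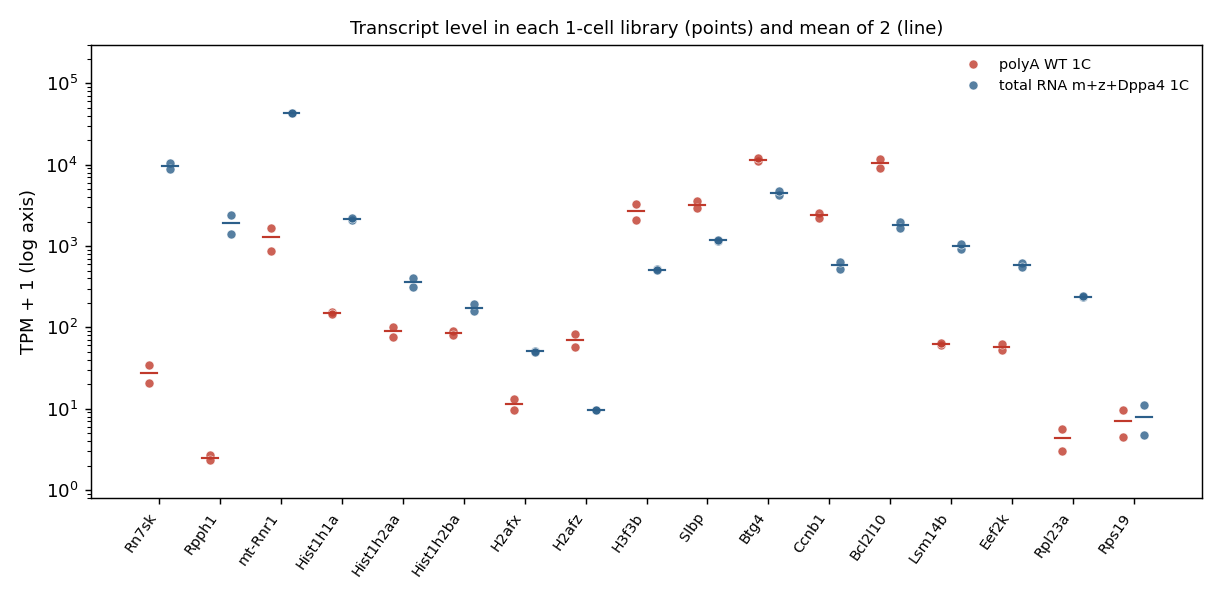
TPM + 1 (log axis) of 17 genes in each library, with polyA WT 1C in red at the left and total RNA m+z+Dppa4 1C in blue at the right of each pair; points are libraries and lines the mean of 2. Rn7sk lies at 20.02 and 33.3 TPM in polyA RNA and at 10376 and 8909 TPM in total RNA, while Btg4 lies higher in polyA RNA.

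Maternal mRNAs that are known to gain a tail as the oocyte matures were mostly higher in polyA RNA. All 22 listed genes were tested, of which 15 were higher and 4 lower, with a median of 0.92 against 0.22 for all genes, of which 35.6% were higher and 26.7% lower. Without centring 10 were higher and 6 lower (median 0.34). Ccnb1, the cyclin that drives M phase and a classic target of cytoplasmic polyadenylation, had 2544 and 2223 TPM in polyA RNA and 523 and 643 TPM in total RNA. Its log2 ratio was 2.61 (SE 0.20, limma adjusted p = 0.000337). Btg4, the adaptor that brings CCR4-NOT to maternal mRNA (chr9:51060901-51119875), had 11118 and 11964 TPM in polyA RNA and 4269 and 4744 TPM in total RNA (log2 ratio 1.93, SE 0.14). Neither gene overlapped between the kinds.

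Bcl2l10, an oocyte member of the Bcl2 family, had 9223 and 11672 TPM in polyA RNA and 1952 and 1679 TPM in total RNA (log2 ratio 3.09, SE 0.14). Orc6, a subunit of the origin recognition complex, had the highest ratio of the list, at 1044 and 1149 TPM in polyA RNA and 164 and 165 TPM in total RNA (log2 ratio 3.30, SE 0.14). The textbook targets Mos and Plat had lower ratios than these. Mos, the kinase that holds the egg in metaphase, had 25.5 and 28.5 TPM in polyA RNA and 24.6 and 23.1 TPM in total RNA (log2 ratio 0.75, SE 0.19, limma adjusted p = 0.0169), and its ratio was -0.34 with the length trend removed. Plat, which encodes tissue plasminogen activator, had 146 and 164 TPM in polyA RNA and 183 and 165 TPM in total RNA. Its log2 ratio of 0.41 (SE 0.14, limma adjusted p = 0.0472) rests on the centring and was -0.17 without it.

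The 4 lower members of that list were Bub1b, Dcp1a, Cnot6l and Pan2. Bub1b, a spindle checkpoint kinase, had 17.1 and 39.1 TPM in polyA RNA and 134 and 150 TPM in total RNA (log2 ratio -1.83, SE 0.34, limma adjusted p = 0.00527). Dcp1a, a decapping factor, had 57.5 and 96.0 TPM in polyA RNA and 295 and 245 TPM in total RNA (log2 ratio -1.27, SE 0.22). Both are long transcripts, of 3668 and 5576 bases, while Bcl2l10, Orc6 and Hprt, with the highest ratios of the list, have 1220, 1287 and 1289 bases. The cytoplasmic polyadenylation motifs TTTTAT or TTTTAAT, searched on the transcript strand, were found in the last 150 bases of 21.4% of protein-coding transcripts. The median ratio was 0.02 with a match and 0.07 without one, over 2758 and 8332 tested genes. The median stage difference, described further on, was 0.41 with a match and 0.21 without one, and neither pair was tested.

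Of the mRNAs for factors that store mRNA or set its tail length, more were lower than higher in polyA RNA. Of 50 tested genes 31 were lower, 8 higher and 11 did not pass (median -0.82), against 26.7% lower and 35.6% higher of all genes. Lsm14b, an oocyte RNA storage factor (chr2:180024987-180035465), had 59.2 and 63.5 TPM in polyA RNA and 930 and 1061 TPM in total RNA (log2 ratio -3.42, SE 0.16, limma adjusted p = 0.000115). Edc4, a scaffold of decapping, had 5.94 and 9.84 TPM in polyA RNA and 125 and 135 TPM in total RNA (log2 ratio -3.34, SE 0.23). Ybx2, the germ cell Y-box protein that packages stored mRNA, had 29.3 and 73.7 TPM in polyA RNA and 371 and 396 TPM in total RNA (log2 ratio -2.44). Eif4e, the cap-binding protein, was higher with 383 and 305 TPM in polyA RNA and 139 and 183 TPM in total RNA (log2 ratio 1.67, SE 0.25).

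Cpeb1, which binds the motif that directs cytoplasmic polyadenylation, had 65.7 and 75.9 TPM in polyA RNA and 120 and 142 TPM in total RNA. Its log2 ratio was -0.30 (SE 0.18, limma adjusted p = 0.194). The related pair Zar1 and Zar1l, which protect oocyte mRNA, went opposite ways with log2 ratios of -0.46 (limma adjusted p = 0.0343) and 0.54 (limma adjusted p = 0.0193). The median transcript of this list had 3370 bases, and Btg4, Cnot6l, Cnot7, Dcp1a, Dcp2 and Pan2 stand in it and in the list of maternal mRNAs that gain a tail.

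Genes expressed in the oocyte were more often higher than lower in polyA RNA, and held a large part of it. Of 48 genes tested 29 were higher and 4 lower, with a median of 1.3, against 35.6% higher and 26.7% lower of all genes. The split depends on the scaling: 22 were higher and 14 lower under quantile normalization (median 0.35), 27 and 14 without centring (0.73), and 27 and 10 with the length trend removed (0.88). Their summed level was 122668 and 127839 TPM in polyA RNA and 45041 and 44831 TPM in total RNA. Omt2b had the highest ratio, at 7530 and 9074 TPM in polyA RNA and 330 and 312 TPM in total RNA (log2 ratio 5.26, SE 0.13, limma adjusted p = 6.17e-05). Omt2a is a close relative at 4.42, so reads may be split between them. Dppa3, a maternal factor that guards DNA methylation, had 13562 and 14107 TPM in polyA RNA and 2745 and 2695 TPM in total RNA (log2 ratio 2.92).

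Ooep and Padi6 serve the same subcortical structure of the egg and went opposite ways. Ooep had 2369 and 2453 TPM in polyA RNA and 708 and 661 TPM in total RNA (log2 ratio 2.39, SE 0.13, limma adjusted p = 0.000162). Padi6 had 253 and 252 TPM in polyA RNA and 726 and 663 TPM in total RNA (log2 ratio -0.88, SE 0.14, limma adjusted p = 0.00335). Kit, a receptor kinase of the oocyte with a transcript of 5241 bases, was the lowest member at -1.25 (SE 0.16). Zp3 of the zona pellucida had a log2 ratio of 1.53 (SE 0.16). Gdf9, a growth factor of the oocyte, lay at 0.36 (SE 0.15, limma adjusted p = 0.0733) and Nlrp5 at -0.20 (SE 0.16, limma adjusted p = 0.313).

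Genes that mark the 2-cell stage were low in both kinds at the 1-cell stage, with 37 genes summing to 1206 and 1199 TPM in polyA RNA and 407 and 322 TPM in total RNA. Of 23 tested 14 were higher and 0 lower in polyA RNA, also at an unadjusted limma p below 0.05 (median 1.59), against 35.6% higher and 26.7% lower of all genes. With the length trend removed 7 were higher and 2 lower (median 0.71), and without centring 9 and 2. Without the filter on low values 8 were higher and 2 lower of 37 genes (median 0.21). Tcstv3 had 55.8 and 53.4 TPM in polyA RNA and 4.07 and 6.41 TPM in total RNA (log2 ratio 3.76, SE 0.29). Zinc finger genes, a large family of DNA-binding proteins, had 54 higher (22.2%) and 64 lower (26.3%) members of 243, a median of -0.05. Without centring 32 were higher and 99 lower (median -0.63), and without the filter 25 and 90.

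Ribosomal protein mRNAs lay close to the median gene at the 1-cell stage and were spread in both directions. Of 79 genes tested 27 were higher (34.2%) and 19 lower (24.1%), shares near those of all genes, and the median of 0.25 became -0.33 without centring. With the trend over transcript length removed 8 were higher and 44 lower (median -1.09), so their place near the median gene depends on the scaling. The 80 genes summed to 3681 and 4648 TPM in polyA RNA and 5354 and 5221 TPM in total RNA. Rps19 of the small subunit (chr7:24884371-24889806), which marks this comparison, averaged 6.06 ± 3.59 TPM in polyA RNA and 6.86 ± 4.43 TPM in total RNA (SD, n = 2 each). Its values overlap, at 3.52 and 8.59 TPM in polyA RNA and 9.99 and 3.72 TPM in total RNA. The log2 ratio was 0.45 (SE 0.50, limma adjusted p = 0.468).

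Single ribosomal protein genes stood far from the list. Rpl23a of the large subunit (chr11:78180932-78183584) had 2.01 and 4.63 TPM in polyA RNA and 234 and 240 TPM in total RNA (log2 ratio -5.28, SE 0.29, limma adjusted p = 0.000155). Rpl22 had 6.34 and 6.07 TPM in polyA RNA and 47.3 and 38.9 TPM in total RNA (log2 ratio -2.03, SE 0.23). At the other end Rps14 had 107 and 124 TPM in polyA RNA and 23.1 and 37.7 TPM in total RNA (log2 ratio 2.50, SE 0.28). Ribosomal protein genes have many processed pseudogenes, and intron-located noncoding RNAs lie in several of them, so reads assigned to a single gene are uncertain.

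Translation factors had 24 higher and 18 lower members of 59 (40.7% and 30.5%, median 0.37), shares near the 35.6% and 26.7% of all genes. Without centring 16 were higher and 27 lower (median -0.21). Eif1, which selects the start codon, had 640 and 849 TPM in polyA RNA and 81.4 and 67.1 TPM in total RNA (log2 ratio 3.88, SE 0.16). Eef2k, the kinase that slows elongation, had 51.9 and 61.7 TPM in polyA RNA and 618 and 552 TPM in total RNA (log2 ratio -2.77, SE 0.14, limma adjusted p = 0.000135). Its substrate Eef2 was lower too, at 9.03 and 19.2 TPM in polyA RNA and 133 and 116 TPM in total RNA (log2 ratio -2.57, SE 0.30).

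mRNAs of other housekeeping complexes were mostly above the median gene in polyA RNA. Against 35.6% higher and 26.7% lower of all genes, nuclear-encoded genes of the respiratory chain were higher in 64 and lower in 1 of 76 (median 1.77), with a sum of 8918 and 9573 TPM in polyA RNA and 2947 and 2982 TPM in total RNA. Mitochondrial ribosomal proteins were higher in 58 and lower in 3 of 76 (median 1.35), and proteasome subunits were higher in 27 and lower in 5 of 41 (median 1.29). With the length trend removed these lists had 33 higher and 6 lower (median 0.48), 28 and 9 (0.46), and 16 and 9 (0.23). Ndufa4, a respiratory chain subunit, had 736 and 768 TPM in polyA RNA and 34.4 and 34.2 TPM in total RNA (log2 ratio 4.99, SE 0.15, limma adjusted p = 6.44e-05). Psmb2, a proteasome subunit, had 1167 and 985 TPM in polyA RNA and 77.3 and 65.8 TPM in total RNA (log2 ratio 4.47, SE 0.19).

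Spliceosome genes went both ways. Of 43 genes 22 (51.2%) were higher and 14 (32.6%) lower (median 0.72), against 35.6% and 26.7% of all genes. Without centring 17 were higher and 16 lower (median 0.15). The small Sm proteins Snrpg and Snrpe had the highest ratios, 5.35 and 4.19, with Snrpg at 1821 and 2354 TPM in polyA RNA and 77.2 and 72.1 TPM in total RNA. Prpf8, the large core protein of the spliceosome with a transcript of 7442 bases, had 3.55 and 5.88 TPM in polyA RNA and 62.1 and 52.6 TPM in total RNA (log2 ratio -2.80, SE 0.25).

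Transcript length went with the ratio over all protein-coding genes. The median ratio was 0.85 for 108 tested genes under 500 bases, 1.83 for 669 genes of 500 to under 1000 bases and 1.13 for 2362 genes of 1000 to under 2000 bases. It was -0.03 for 4310 genes of 2000 to under 4000 bases and -0.82 for 3641 genes of 4000 bases or more. Spearman's rho between length and ratio was -0.53 over the protein-coding genes tested, a description over genes that share 4 libraries. GC content had a rho of -0.23. The part of length in each class was not tested, but with the trend over length removed, an alternative chosen after seeing the data, the median of replication-dependent histones was -2.69 and that of ribosomal proteins -1.09. That of the nuclear-encoded respiratory chain was 0.48, of replacement histones 0.20, of 2-cell genes 0.71 and of structural noncoding RNAs -4.81. Ribosomal protein transcripts have a median length of 878 bases, and that of the nuclear-encoded respiratory chain list is 870.

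**Figure D3:**
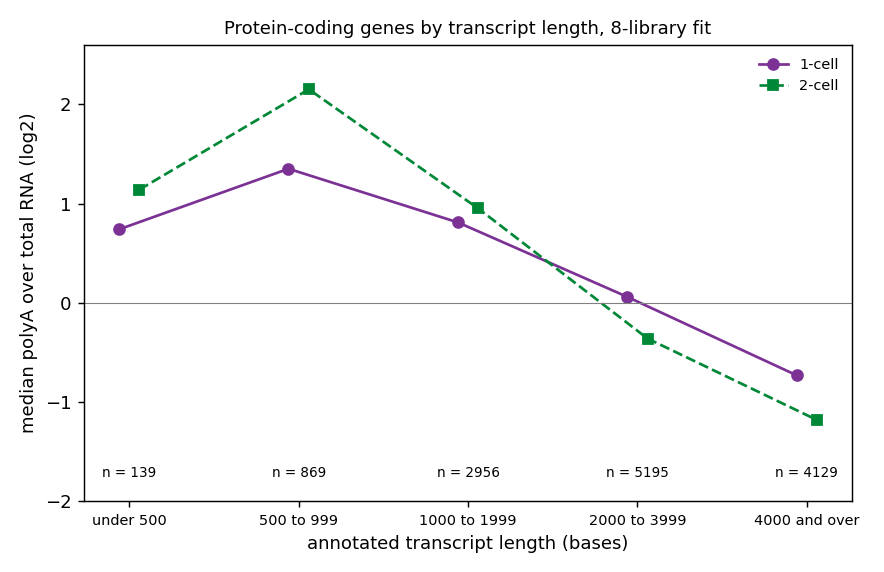
Median log2 ratio of polyA over total RNA for protein-coding genes in 5 bins of annotated transcript length, at the 1-cell stage (circles) and the 2-cell stage (squares), from the fit of 8 libraries; n is the genes per bin. The bin of 500 to under 1000 bases is at 1.35 for the 1-cell and 2.15 for the 2-cell stage, and the bin of 4000 bases and over is at -0.73 and -1.18.

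The abundant end of each library shared part of its genes. Of the 100 most abundant protein-coding genes in polyA RNA 53 were also among the 100 most abundant in total RNA. The most abundant in polyA RNA was Mphosph6, a cofactor of the RNA exosome, at 15621 and 17733 TPM in polyA RNA and 3196 and 3252 TPM in total RNA. The most abundant protein-coding gene in total RNA was Zbed3, a maternal egg protein gene, at 6514 and 6870 TPM in polyA RNA and 9589 and 9950 TPM in total RNA (log2 ratio 0.03, limma adjusted p = 0.854). Both were named for their place after their values were seen. By rank within a library, the median structural noncoding RNA stood at the 17 and 32.4 percentile of tested genes in polyA RNA and at the 99.5 and 99.3 percentile in total RNA. The median replication-dependent histone stood at the 29.0 and 19.6 percentile in polyA RNA and the 53.5 and 57.2 percentile in total RNA.

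RNA made in mitochondria split by kind. The 12S rRNA mt-Rnr1 had 1687 and 869 TPM in polyA RNA and 43543 and 43525 TPM in total RNA (log2 ratio -4.59, SE 0.36, limma adjusted p = 0.000341), and the 16S rRNA mt-Rnr2 had a log2 ratio of -3.09 (SE 0.35). Of 13 mitochondrial mRNAs 1 was higher and 1 was lower, against 35.6% and 26.7% of all genes. Their median of 0.25 became -0.93 under quantile normalization, with 6 lower and 0 higher. Their polyA replicates differed, with a sum of 43581 and 18123 TPM in polyA RNA, against 31068 and 34767 TPM in total RNA.

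Among protein-coding genes the extremes included genes outside these lists. Pnpla3, a lipase of lipid droplets, had the lowest log2 ratio after the histones, -5.36. Lrp5, a Wnt co-receptor, had 1.82 and 2.42 TPM in polyA RNA and 160 and 149 TPM in total RNA (log2 ratio -5.07, SE 0.20, limma adjusted p = 9.62e-05). Cdc42bpb, a kinase of the cytoskeleton, and Cic, a transcriptional repressor, had log2 ratios of -4.83 and -4.72. At the high end Rasl2-9 had 71.0 and 87.7 TPM in polyA RNA and 0.40 and 0 TPM in total RNA (log2 ratio 6.65, SE 0.27). It is an intronless relative of Ran, so its reads may come from another copy. Ston1, an endocytosis adaptor, and Rps27l, a ribosomal protein paralog, had log2 ratios of 5.33 and 5.08. Dppa2, a regulator of early embryonic genes, was higher, at 244 and 174 TPM in polyA RNA and 114 and 122 TPM in total RNA (log2 ratio 1.38, SE 0.25, limma adjusted p = 0.00469). Its partner Dppa4 had 7.53 and 10.5 TPM in polyA RNA and 10.5 and 16.6 TPM in total RNA (log2 ratio 0.06, SE 0.32, limma adjusted p = 0.881). The common reference genes Actb and Gapdh lay near the median gene, at 0.40 (limma adjusted p = 0.136) and -0.09 (limma adjusted p = 0.807).

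Whether these ratios hold beyond the 1-cell stage was tested as the difference of the 1-cell ratio minus the 2-cell ratio, in a limma fit of 8 libraries and 17283 genes. The 1-cell libraries are shared with the comparison above, so this is no independent support for it. The difference was positive in 1189 genes that passed (6.88%) and negative in 927 (5.36%), with a median of 0.25 over all genes. These counts depend on single libraries. Without polyA 1-cell replicate 1 or 2 they were 0 and 1, or 0 and 2, and without total RNA 1-cell replicate 1 or 2 they were 1 and 1, or 9 and 20. Without total RNA 2-cell replicate 2 they were 42 and 60. Without the centring 497 were positive and 1945 negative, without the filter 191 and 1145, and with the length trend removed 744 and 1003. Unadjusted limma p-values below 0.05 numbered 5430 in the full fit and at least 3730 without a library.

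Blood markers had higher sums in the 2-cell than in the 1-cell libraries. At the 2-cell stage they summed to 123 and 228 TPM in polyA RNA and 19.4 and 12.5 TPM in total RNA. There 3 of 8 were listed at 0 in polyA RNA and 4 of 8 in total RNA. Whether these reads came from other cells, and their part in the stage differences, was not tested.

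Ribosomal protein mRNAs had a lower ratio at the 1-cell than at the 2-cell stage. The median ratio of the list was 0.12 at the 1-cell and 1.96 at the 2-cell stage, and the difference passed as negative in 42 of 80 genes (52.5%, against 5.36% of all genes) and as positive in 0, also at an unadjusted limma p below 0.05. It was negative in 78 of 80. Rpl22, whose 1-cell values are above, had 292 and 293 TPM in polyA RNA and 69.5 and 59.95 TPM in total RNA at the 2-cell stage. Its difference was -4.23 (SE 0.32, limma adjusted p = 0.00729). For Rpl23a it was -5.18 (SE 0.50, limma adjusted p = 0.00817), and for Rps19, with 709 and 591 TPM in polyA RNA and 117 and 73.4 TPM in total RNA at the 2-cell stage, it was -2.39 (SE 0.65, limma adjusted p = 0.0512).

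The sum over ribosomal protein genes was 27714 and 25794 TPM in polyA RNA and 7562 and 4540 TPM in total RNA at the 2-cell stage. The median difference of the list was -1.79. For protein-coding genes it was -0.05 under 500 bases, -0.49 from 500 to under 1000 bases and 0.01 from 1000 to under 2000 bases, and the part of length in the list's difference was not tested. The list count was 0 without either polyA 1-cell library or total RNA 1-cell replicate 1, with 52 to 56 genes at an unadjusted limma p below 0.05. It was 2 without total RNA 1-cell replicate 2 and 8 without total RNA 2-cell replicate 2. The list median stayed between -2.23 and -1.47 in all 8 fits that left out 1 library.

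Respiratory chain genes, mitochondrial ribosomal proteins and proteasome genes had lower ratios at the 1-cell than at the 2-cell stage in part of their members, against 5.36% negative and 6.88% positive of all genes. The difference passed as negative in 22 and positive in 1 of 76 respiratory chain genes (median -1.08). It passed as negative in 13 and positive in 0 of 77 mitochondrial ribosomal proteins (median -0.79; at an unadjusted limma p below 0.05, 25 and 2), and as negative in 14 and positive in 2 of 44 proteasome genes (median -0.91). All these counts fell to 0 whichever 1-cell library was left out, with 33 to 38, 17 to 21 and 18 to 22 negative at an unadjusted limma p below 0.05. Without total RNA 2-cell replicate 2 the negative counts were 4, 1 and 0.

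Replication-dependent histone mRNAs showed the reverse. Their median ratio was -1.45 at the 1-cell and -3.63 at the 2-cell stage, and the difference passed as positive in 23 of 66 genes (34.8%, against 6.88% of all genes) and as negative in 0, also at an unadjusted limma p below 0.05. The summed level at the 2-cell stage was 396 and 426 TPM in polyA RNA and 7607 and 6235 TPM in total RNA. Of the 23 genes 11 encode H2B. In H2B the family sum was 229 and 256 TPM in polyA RNA at the 1-cell stage and 29.4 and 31.4 TPM in polyA RNA at the 2-cell stage. In total RNA it was 1156 and 1115 TPM at the 1-cell stage and 1713 and 1258 TPM at the 2-cell stage.

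Hist1h2ba had the highest difference of the named genes, 5.56 (SE 0.57, limma adjusted p = 0.00858). In polyA RNA it had 88.6 and 79.5 TPM at the 1-cell and 0.0741 and 1.37 TPM at the 2-cell stage. In total RNA it had 157 and 191 TPM at the 1-cell and 103 and 108 TPM at the 2-cell stage. Hist1h2aa, with 76.0 and 101.1 TPM in polyA RNA at the 1-cell and 1.13 and 1.98 TPM at the 2-cell stage, had a difference of 4.39 (SE 0.42, limma adjusted p = 0.00817). For Hist1h2bk it was 4.96 (SE 0.46, limma adjusted p = 0.00752), with 48.7 and 77.8 TPM in polyA RNA at the 1-cell and 3.08 and 4.62 TPM at the 2-cell stage.

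The histone count also rests on single libraries. It was 0 without either polyA 1-cell library or total RNA 1-cell replicate 1, with 30 to 38 genes at an unadjusted limma p below 0.05. It was 4 without total RNA 1-cell replicate 2, and 11 and 6 without total RNA 2-cell replicates 1 and 2. The median difference stayed between 1.44 and 2.01 in the 8 fits that left out 1 library.

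**Figure D4:**
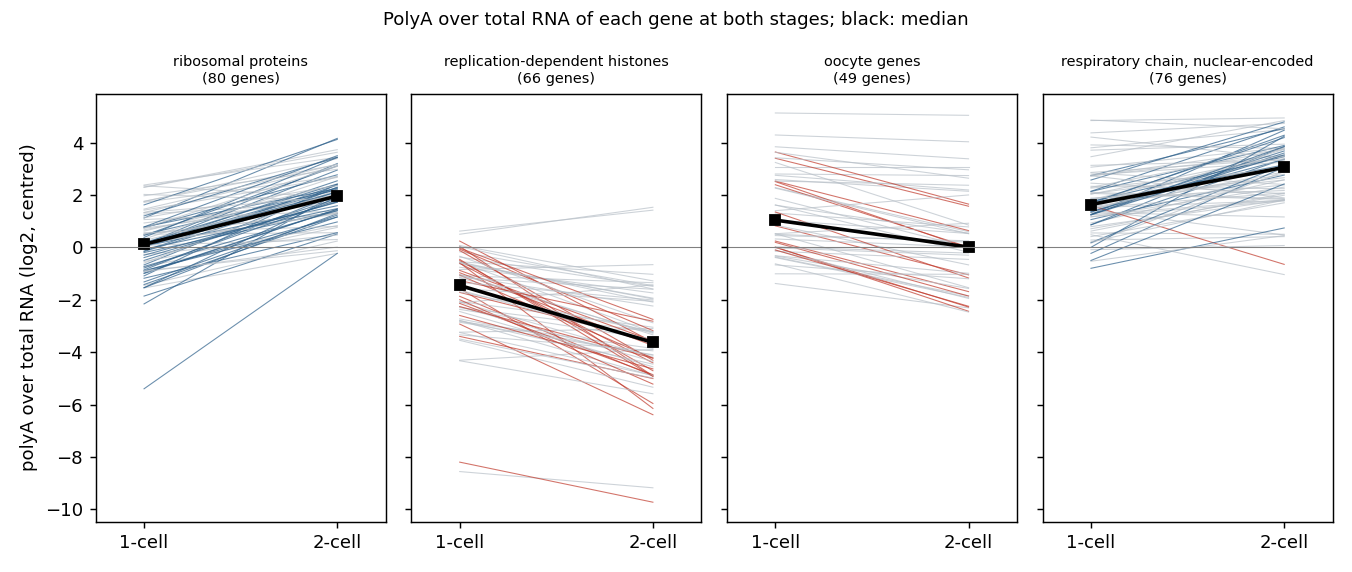
Log2 ratio of polyA over total RNA of each gene at the 1-cell (left) and 2-cell stage (right) in 4 lists, from the fit of 8 libraries. Red lines are genes with a higher and blue lines genes with a lower 1-cell ratio by limma, grey lines did not pass, and black squares are medians. Ribosomal proteins have medians of 0.12 and 1.96, and replication-dependent histones -1.45 and -3.63.

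Maternal mRNAs leaned the same way as the histones. Among oocyte genes the difference passed as positive in 12 of 49 (against 6.88% of all genes) and as negative in 0 (at an unadjusted limma p below 0.05, 23 and 0), with median ratios of 1.04 at the 1-cell and 0.01 at the 2-cell stage. Among the 22 mRNAs that gain a tail in maturation it was positive in 6 and negative in 0 (unadjusted 12 and 0). Bcl2l10 had 9223 and 11672 TPM in polyA RNA at the 1-cell and 916 and 827 TPM at the 2-cell stage. In total RNA it had 1952 and 1679 TPM at the 1-cell and 504 and 726 TPM at the 2-cell stage, a difference of 2.53 (SE 0.30, limma adjusted p = 0.012). Plat had a difference of 2.26 (SE 0.33), Gdf9 of 1.92 (SE 0.33), Slbp of 1.60 (SE 0.41) and Btg4 of 1.54 (SE 0.39). For Ccnb1 it was 0.34 (SE 0.35, limma adjusted p = 0.54).

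In these lists too the counts fell to 0 whichever 1-cell library was left out. For oocyte genes 17 to 24 then had an unadjusted limma p below 0.05, and for the mRNAs that gain a tail 8 to 10. Structural noncoding RNAs had median ratios of -4.70 at the 1-cell and -6.22 at the 2-cell stage. Their difference passed as positive in 3 of 14, Vaultrc5, Rnu12 and Terc (against 6.88% of all genes). Rnu12 and Terc, the telomerase RNA, were listed at 0 in both 2-cell polyA libraries. For Vaultrc5 the difference was 4.82 (SE 0.68, limma adjusted p = 0.0132), with 96.9 and 49.4 TPM in polyA RNA and 2576 and 1840 TPM in total RNA at the 2-cell stage.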

How the data were processed

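The deposited values were FPKM per gene, made by the authors with HISAT2 2.1.0 and StringTie 1.3.3b on mm10, per the submitters' processing notes. How counting treated strand and shared reads is not given in the sources used here, and depth is unknown. The tables of 46078 genes were matched by gene ID, of which 45143 (98.0%) matched GENCODE M21 for type and transcript length. Their 20 columns outside the groups compared were not used. FPKM were scaled to TPM in each library, log2(TPM + 1) was centred on the library's median tested gene, and genes with at least 1 TPM in at least 2 of the libraries fitted were tested with limma 3.58.1 (trend and robust, R 4.3.3), two-sided, with Benjamini-Hochberg adjusted p under 0.05. The first fit held the 4 libraries of the 1-cell stage and another the 8 libraries of both stages in 4 groups. The pipeline was tested on simulated data. Named genes were a fixed set, the extremes of each list and of all called genes by a preset rule. Dppa3 was one of the preset embryo and oocyte markers. Hist1h1a, Mphosph6, Zbed3, Ybx2, Cyp19a1, Rnu11, Rnu12, H3f3a and other genes outside these were chosen after their values were seen. The members and lists were chosen with earlier results of these data known. Alternatives were the pseudocount, filter, centring, scaling, weights, replicate block, other total RNA groups and each library left out. Those other groups were 1-cell m+z+Dppa2 controls (mixed B6/DBA) and 1-cell m-z+Dppa4 embryos, which are maternal Dppa4 mutants. Removal of the length trend was added after seeing the data.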

Additional observations from a re-analysis of the deposited data

Results flagged for a closer look

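The following named genes had a polyA ratio that differed between stages by limma (adjusted p under 0.05 for the 1-cell minus 2-cell difference, 8 libraries). Each value is that difference on the log2 scale, and none was weighed for a cause. Such calls depend on single libraries. Over all genes, at most 9 positive and 20 negative differences passed when any one 1-cell library was left out, and 42 and 60 without total RNA 2-cell replicate 2.

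Among histones it was 5.56 for Hist1h2ba, 4.96 for Hist1h2bk, 4.46 for Hist1h3i, 4.39 for Hist1h2aa and 1.53 for Hist2h2bb. Among maternal genes it was 2.53 for Bcl2l10, 2.26 for Plat, 1.92 for Gdf9, 1.86 for Lsm14b, 1.60 for Slbp and 1.54 for Btg4. Among ribosomal proteins it was -5.18 for Rpl23a and -4.23 for Rpl22, and it was 1.08 for Rps27l. Dppa4 had -2.76.

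Among genes of the mitochondrion Ndufb4 had -1.54, Mrps30 -1.50 and Cox17 -4.51. Among noncoding genes Vaultrc5 had 4.82, Snord118 3.13, Snhg3 -3.53, Gm7204 2.55, Gm16549 3.38 and Gm4862 2.25. Other genes with a higher 1-cell ratio were Olfr878 with 4.75, C86695 with 4.73, Manba with 4.48, Stard7 with 4.33, Ston1 with 2.96, Prl8a2 with 2.67, Rasl2-9 with 2.52, Zfp873 with 2.49 and A630095E13Rik with 1.59. Other genes with a lower 1-cell ratio were Tsc22d4 with -4.97, Ogdh with -4.73, Ctrb1 with -4.60, Ccdc107 with -4.57, Pnpla3 with -4.46 and Cd63 with -4.45. For Gm16549, Gm4862, Hist2h2bb, Hist1h3i, Rasl2-9, Olfr878, C86695, Ctrb1 and Cd63, which have groups listed at 0, the estimate depends on the pseudocount and is no bound.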

How the results depend on the processing

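At the 1-cell stage the count of higher genes was 3173 without the filter. The median of replication-dependent histones was -2.05 with a pseudocount of 0.1, -0.96 with one of 5, -2.09 with a mean TPM of at least 5, -2.15 without centring, -2.69 with the length trend removed and -2.07 against total RNA of m+z+Dppa2 embryos (mixed B6/DBA). That of ribosomal proteins was -0.33 without the filter, -0.33 without centring and -1.09 with the length trend removed. Leaving out 1 library gave 3492 to 4378 higher and 2077 to 3694 lower genes, and moved Vaultrc5 between -0.82 and 0.70.

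Direction turned for Plat (-0.17 without the filter, -0.17 without centring and -0.05 under quantile normalization), for H1foo (-0.18 under quantile normalization and -0.49 with the length trend removed) and for Gdf9 (-0.61 under quantile normalization). With the length trend removed it also turned for Dppa4 (-1.01), Mos (-0.34), Ccdc107 (-1.33) and Hist1h2bk (-1.09). Against m+z+Dppa2 total RNA it turned for Snhg3 (0.23) and Hist1h2bk (-0.95). The cause was not tested.

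For the stage difference, the counts of positive and negative genes were 611 and 473 with a pseudocount of 0.1, 1718 and 1555 with one of 5, 191 and 1145 without the filter, 497 and 1945 without centring, 682 and 549 with TPM over nuclear protein-coding genes, and 744 and 1003 with the length trend removed. Quantile normalization gave 975 and 1140. The ribosomal protein median was -2.33 without the filter and -2.32 without centring, and mt-Rnr2 turned to -1.69 under quantile normalization. Leaving out 1 library gave 0 to 2027 positive and 1 to 1096 negative genes; the causes were not tested.

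Replicate numbers did not pair the libraries: same-numbered deviations correlated between -0.02 and 0.12 across 17283 genes. With the replicate block 4881 genes were higher and 3604 lower at the 1-cell stage, and the stage difference passed in 903 positive and 754 negative genes. Depth is unknown, and 2 libraries a group limit the precision.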

Other observations

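Immunoglobulin constant-region genes, which belong to no list above, were present in both kinds of 1-cell library. Of 13 rows 7 were tested, 6 were higher and 0 were lower in polyA RNA by limma (against 35.6% and 26.7% of all genes), with a median log2 ratio of 1.85. They summed to 824 and 726 TPM in polyA RNA and 172 and 186 TPM in total RNA.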
